A study of Mus musculus with 3 samples.

Results

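The natural killer (NK) cells of the naive mouse brain were taken as the cells that the deposited annotation puts in RNA cluster 5, which held 146 of the 2653 cells of the naive brain, or 5.50%. The series lists 11510 cells over 3 tissue matrices, and the blood and the brain with metastases were used here only to count shared barcodes and, at the end, for values set side by side. The cells came from a CITE-seq experiment, in which droplets capture the RNA of single cells together with DNA-tagged antibodies against surface proteins. Cells were stained with 35 antibodies, and 8 samples were marked with hashtag antibodies, pooled and sequenced as 1 set of 3 libraries: RNA, antibody tags and hashtags.

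Of the 146 NK cells, 110 carried the hashtag M-HTO-4 and were labelled depleted, and 36 carried M-HTO-1 and were labelled control. The depleted label stands for Cx3cr1CreERT-ROSA-iDTR mice, in which a recombinase driven by Cx3cr1 switches on a diphtheria toxin receptor, and the control label for Cx3cr1CreERT mice, which carry the recombinase without the receptor. Both received tamoxifen, a pause of 1 month and then diphtheria toxin, and both were female, aged 2 to 3 months, on the C57Bl/6 background and free of tumours. Each sample came from 1 brain hemisphere of an animal perfused to wash blood from the vessels. The tissue was digested and its immune cells were enriched by Percoll centrifugation, so cell shares are those of the enriched suspension. Cx3cr1 is also made by cells other than microglia, and the submitters state that remnant microglia persist in depleted samples. There was 1 hashed sample in each arm, so no comparison here has a replicate or a test, and all intervals cover counting error only.

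The labels of the arms go against the targeted cells. Microglia cluster 0 made up 686 of 1868 cells (36.7%) labelled depleted and 134 of 785 cells (17.1%) labelled control. The Cx3cr1 level in those microglia was 10.0 corrected UMIs per 10000 in the sample labelled depleted and 1.72 in the sample labelled control. For this reason the arms are called "labelled depleted" and "labelled control" throughout.

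NK cells are innate lymphocytes that kill infected or transformed cells without a rearranged antigen receptor. They weigh signals from activating receptors, which work through the adaptors Tyrobp, Fcer1g and Hcst, against inhibitory receptors for MHC class I, such as the Ly49 family (the Klra genes) and the pair Klrd1 and Klrc1, and they release perforin and granzymes. In mouse tissues they lie close to type 1 innate lymphoid cells (ILC1), which share Ncr1 and Klrb1c but are commonly told apart by Itga1, Cxcr6 and Tnfsf10 against Eomes and Itga2.

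The antibody tags shown first are those that separate NK cells from T cells and myeloid cells on the surface, followed by the hashtags that separate the arms. NK1.1 is the protein of Klrb1c and CD335 that of Ncr1. Each is a designed DNA tag of 15 bases, 5′ to 3′.
NK1.1 tag: gtaacattactcgtc
CD335 tag: ccctttcacctcgaa
CD3 tag: gtatgtccgctcgat
CD11b tag: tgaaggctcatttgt
M-HTO-4 hashtag, labelled depleted: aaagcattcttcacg
M-HTO-1 hashtag, labelled control: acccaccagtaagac

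The promoters of Ncr1, Gzmb and Gzmc are shown because Ncr1 and Gzmc had the largest NK over T cell ratios below and Gzmb lies in the same granzyme cluster as Gzmc. They are RefSeq windows of 300 bases on GRCm38.p6, from 250 bases before to 50 after the start listed in that table, read 5′ to 3′ along the gene. Capitals mark TGTGGT, the core letters known for RUNX factors, or its reverse complement ACCACA. The Ncr1 window lies at chr7:4337465-4337764 on the plus strand, the Gzmb window at chr14:56262285-56262584 on the minus strand, and the Gzmc window at chr14:56234608-56234907 on the minus strand. The Gzmc window lies inside the annotated span of the gene (chr14:56231397-56241647) and not at its outer end.
Ncr1: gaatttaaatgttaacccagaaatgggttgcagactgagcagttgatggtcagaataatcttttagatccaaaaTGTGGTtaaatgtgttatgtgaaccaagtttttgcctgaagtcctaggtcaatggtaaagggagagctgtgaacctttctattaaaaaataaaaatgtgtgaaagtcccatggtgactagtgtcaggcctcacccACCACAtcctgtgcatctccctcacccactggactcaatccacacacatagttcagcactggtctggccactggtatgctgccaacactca
Gzmb: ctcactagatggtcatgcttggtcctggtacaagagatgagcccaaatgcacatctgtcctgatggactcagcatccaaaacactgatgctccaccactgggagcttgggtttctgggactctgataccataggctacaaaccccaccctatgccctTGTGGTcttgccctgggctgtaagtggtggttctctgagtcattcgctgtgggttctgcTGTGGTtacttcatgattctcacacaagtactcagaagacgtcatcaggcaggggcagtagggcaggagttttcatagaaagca
Gzmc: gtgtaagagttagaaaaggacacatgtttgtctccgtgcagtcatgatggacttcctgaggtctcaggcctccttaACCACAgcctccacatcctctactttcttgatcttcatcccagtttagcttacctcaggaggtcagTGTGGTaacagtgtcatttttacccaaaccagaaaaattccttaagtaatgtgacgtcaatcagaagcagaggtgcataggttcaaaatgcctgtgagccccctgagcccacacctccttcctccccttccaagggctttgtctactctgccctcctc
Each of the 3 windows held 2 matches, counting both strands. Over all RefSeq promoter windows of this length, 5506 of 32851 held the letters, which is 5113 of 27025 genes or 18.9%. Of the NK identity list, 14 genes had a window and 9 of them held a match, and of the cytotoxic effector list 15 had a window and 11 held one. In the T cell list it was 1 of 10, and in the 9 Ly49 genes it was 1 of 9. The T-box letters GGTGTGA, searched on both strands, occurred in 1244 of the 27025 genes (4.6%), in 1 of the 14 NK identity genes, in 4 of the 15 cytotoxic effector genes and in 1 of the 10 T cell genes. The letter strings can share bases, since TGTGGT ends and GGTGTGA begins with GGT. These counts describe letters in windows, not binding.

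Levels below are corrected UMIs per 10000 corrected UMIs, summed over the cells of a group. NK cells had a median of 6531.5 raw UMIs per cell, against 6534 in T cell cluster 1, so those clusters were sequenced to like depth, while microglia had 14083. Within the NK cluster the median was 6194.5 labelled depleted and 6988 labelled control. After the authors' depth correction the totals per NK cell lay between 7940 and 10862. Of the NK cells, 13 (8.90%) had a barcode that is also listed in another matrix of the series, 5 of them labelled depleted and 8 labelled control, against 29.1% of all naive-brain cells. Results without them are given where they move.

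The label of the cluster was first set against its markers. Ncr1, which encodes the NK receptor NKp46 (chr7:4337715-4345184), was at 5.96 in the NK cluster and at most 0.144 in any of the other 8 clusters, and 133 of 146 NK cells (91.1%) had a UMI of it against 3.81% of T cells and 2.56% of microglia. Klrb1c (chr6:128778485-128788641), the gene of NK1.1, was at 4.55 and seen in 131 cells, with the T cell cluster next at 0.318. Klre1 (chr6:129559365-129585828), a lectin-like NK receptor subunit, was at 6.34 and seen in 136 cells, with T cells next at 0.978. All 3 were thus present in most NK cells and stood highest in this cluster.

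Gzma (chr13:113093824-113100981), a granule protease, was also highest here, at 20.8 against 1.68 in T cells, but was found in only 59 of 146 cells (40.4%). Eomes (chr9:118478186-118486132), a T-box factor of conventional NK cells, did not mark the cluster. Its level was 0.613 in NK cells and 0.835 in T cells, and 33 of 146 NK cells (22.6%) had a UMI against 33.7% of T cells. Itga2, the gene of the NK marker CD49b, was at 0.227 in NK cells and 0.0723 in T cells and was found in 19 of 146 NK cells, 9 of the 90 cells with a UMI of Itga1 and 10 of the 56 without. Ncr1, Klrb1c, Klre1 and Gzma thus set the cluster apart from T cells, but Ncr1 and Klrb1c are shared with ILC1, and of the genes that speak for conventional NK cells Eomes and Itga2 were found in a minority of cells.

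Of the 20 genes of the NK identity list, 19 reached a level of 0.5 in the cluster, and 17 of those 19 were higher there than in any other cluster. The exceptions were Eomes, highest in T cells, and Fcgr3, an Fc receptor at 0.863 in NK cells and 5.88 in microglia. The summed level of the list was 116.6 in the NK cluster, 35.8 in the T cell cluster and between 0.9 and 11.4 in the other clusters. Among the inhibitory receptors, 9 of the 9 genes at 0.5 or more stood highest in NK cells, among the cytotoxic effectors 10 of 13, and among activating receptors and adaptors 10 of 17. The adaptors are shared with myeloid cells: Tyrobp was at 23.8 in NK cells and 41.4 in cluster 7, which is rich in neutrophil transcripts, and Fcer1g was at 31.0 against 46.2 in cluster 4. None of the 17 interferon-response genes at 0.5 or more, and none of the 8 such microglia genes, was highest in the NK cluster.

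**Figure D1:**
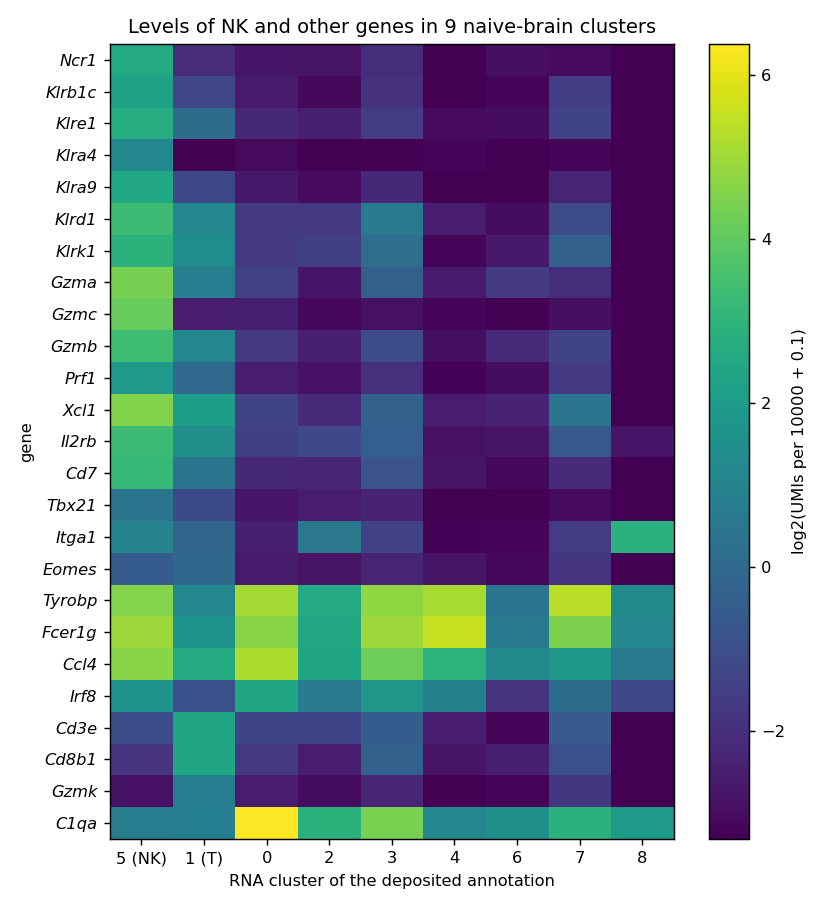
Levels of 25 genes (rows) in the 9 RNA clusters of the naive brain (columns, NK cluster first, T cell cluster next), as log2 of corrected UMIs per 10000 plus 0.1. Ncr1, Klrb1c, Klre1, Klra4, Klra9 and Gzmc are bright in cluster 5 alone, Tyrobp and Fcer1g are also bright in myeloid clusters, and Eomes is alike in clusters 5 and 1.

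Traces of other cell types were measured beside these results. The microglia list summed to 11.2 in NK cells and 13.1 in T cells, against 465.7 in microglia, and C1qa, a complement subunit abundant in microglia, was at 1.57 and 1.72 in NK and T cells and at 83.4 in microglia. The dendritic list summed to 3.47 in NK cells, the erythrocyte list to 0.189, and the basophil and mast cell list was at 0. The T cell list summed to 15.1 in NK cells, against 75.5 in T cells. That sum came mostly from Trbc1, Trbc2 and Cd3g, while Cd3e, the invariant subunit of the T cell receptor complex, was seen in 13 of 146 NK cells and Cd8b1 in 4.

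Against T cell cluster 1, which holds 499 cells, the NK cluster was compared gene by gene as a log2 ratio with a pseudocount of 0.1 per 10000, over the 2915 genes at 0.5 or more on either side. Since both clusters were made from these genes, the ratios describe the clusters and are no test. In the NK cluster 120 genes (4.12%) were at least 2-fold higher and 54 (1.85%) at least 2-fold lower, and the median over all measured genes was 0.11. Within the arms the shares were 4.19% and 1.79% for the sample labelled depleted, with 110 NK and 440 T cells, and 7.01% and 4.18% for the sample labelled control, with 36 and 59.

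Of the NK identity list, 17 of 19 measured genes were at least 2-fold higher and none at least 2-fold lower, with a median of 2.58. Members such as Ncr1 and Klra4 were measured through their NK level alone, with 0.136 and 0.0022 in T cells. The list also holds markers of the cluster and was chosen with earlier results of these data known. Its count therefore describes the cluster and cannot be weighed against the share of all genes. The ratio was largest for Gzmc (chr14:56231397-56241647), a granzyme of activated killer cells, at 17.4 in NK cells and 0.0658 in T cells, a log2 ratio of 6.72. Its level was 16.4 (95% interval 15.6 to 17.2) in NK cells labelled depleted and 20.7 (19.1 to 22.3) in those labelled control, against 0.0722 and 0.0183 in the T cells of the same arms. It thus stood far above T cells in both arms, although only 70 of 146 NK cells had a UMI of it and 1 cell held 13.1% of its UMIs. Ncr1 followed at 4.68, with 6.14 (5.66 to 6.65) and 5.43 (4.66 to 6.29) in the NK cells labelled depleted and labelled control and 0.154 and 0 in the T cells. Klrb1c had a ratio of 3.48, with 4.37 (3.97 to 4.80) and 5.09 (4.35 to 5.93) in the NK cells of those arms. Ncr1 and Klrb1c were spread evenly over the NK cells, with 2.41% and 2.33% of their UMIs in the top cell.

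The activating side of the receptor balance had 10 of 18 measured genes at least 2-fold higher and 2 lower, with a median of 1.43. Besides Ncr1 and Klrb1c these were Klrk1, the gene of NKG2D, at 7.44 in NK cells and 2.55 in T cells, Klrb1f, Klrc2, Cd244 (1.70 and 0.156), Fcgr3, and the signalling proteins Tyrobp (23.8 and 2.22), Fcer1g (31.0 and 3.13) and Lat2. The adaptor Hcst, which couples NKG2D, ran the other way, at 4.74 in NK cells and 7.18 in T cells, with a log2 ratio of -0.59. Cd247, the zeta chain shared by the T cell receptor and Fc receptors, and Sh2d1a were at least 2-fold lower. Sh2d1b1, an adaptor of the SLAM receptors, missed the level of 0.5, at 0.439 in NK cells and 0.011 in T cells.

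Inhibitory receptors had 6 of 10 measured genes at least 2-fold higher, 1 lower (Ctla4) and a median of 1.62. Klrd1, which pairs with NKG2 chains to read the MHC class I molecule Qa-1, was seen in 145 of 146 NK cells at a level of 10.1, against 2.21 in T cells. Its inhibitory partner Klrc1 was at 2.69 against 0.778, and Klrb1b, a receptor for a C-type lectin, at 2.07 against 0.0438. The checkpoint genes were low in level: Tigit was found in 9 NK cells, Lag3 in 40 and Pdcd1 in 32, with levels of 0.091, 0.469 and 0.522. Pdcd1 was still among the 9 inhibitory receptor genes at 0.5 or more that stood highest in the NK cluster.

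Killing machinery was higher in 8 of 14 measured genes by at least 2-fold, with a median of 1.18. Gzmb was at 10.4 in NK cells against 2.21 in T cells, and perforin (Prf1) at 3.56 against 0.905. Serpinb9, which protects killers from their own granzyme B, was at 2.33 against 0.752. The granule protein Nkg7 (22.1 and 18.4) and the death ligand Fasl (1.73 and 1.66) were near equal in both clusters. Gzmk was the exception, at 0.0378 in NK cells, where 2 cells had it, and 1.69 in T cells.

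Xcl1, which attracts cross-presenting dendritic cells, was at 23.0 in NK cells and 4.23 in T cells and was seen in 136 of 146 NK cells. Ccl4 and Ccl3 were at 24.97 and 5.10 in NK cells against 6.04 and 1.1 in T cells, and both were higher still in microglia, at 36.6 and 16.5. Ccl5 (70.2 and 67.5) and Ltb (8.19 and 8.22) were alike in NK and T cells, and Ifng was at 1.08 in NK cells against 1.37. Of the 10 measured genes in this list, 3 were at least 2-fold higher and none lower.

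Most transcription factors of the list were close to T cells, with 2 of 17 measured genes at least 2-fold higher, 3 lower and a median of 0.13. The higher ones were Tbx21, the gene of T-bet, at 1.24 against 0.353, and Irf8, at 3.11 against 0.419, which microglia held at 5.09. Id2 (9.38 and 6.69) and Runx3 (2.74 and 2.06) were higher by less than 2-fold. The T lineage factors Bcl11b and Tcf7 were lower, at 0.378 and 0.303 against 2.75 and 1.15. In the T cell list 14 of 15 measured genes were at least 2-fold lower, with Cd8b1 at 0.182 against 5.23, Cd3e at 0.409 against 5.25 and Trac at 0.363 against 5.09. The exception was Trbc1, a T cell receptor beta constant gene, which was at 4.24 in NK cells and 7.77 in T cells and was found in 121 of 146 NK cells and 347 of 499 T cells.

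Receptors for cytokines and tissue signals gave a mixed picture. Il2rb, the signalling chain for interleukin 15, was at 10.0 in NK cells against 2.67 in T cells, while Il7r was at 0.515 against 1.83. Of 12 measured cytokine receptors 6 were higher by any size, 1 of them by at least 2-fold, and 6 were lower, 1 of them by at least 2-fold. Ccr2 was at 3.64 against 1.5, and Cxcr3 and Cxcr4 at 1.29 and 0.59 against 2.66 and 1.64. Cx3cr1 was low in both clusters, at 0.227 and 0.191, and was seen in 20 of 146 NK cells.

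Genes of the mature NK stage were present unevenly. Of 9 measured, 4 were at least 2-fold higher than in T cells, and these were Gzmb, Prf1, Irf8 and Serpinb9. The surface markers of that stage were rare: Itgam, the gene of CD11b, was found in 44 of 146 NK cells, Klrg1 in 11, S1pr5, the egress receptor of mature NK cells, in 10, and the protease Cma1 in 6. Of the immature list, Xcl1, Cd7 (8.96 and 1.27) and Tnfrsf9 were at least 2-fold higher and Emb, Tcf7, Thy1 and Il7r at least 2-fold lower. Cd27 was at 1.03 in NK cells and 1.51 in T cells. In the list for ILC1 and tissue residency, Itga1 (1.95 and 0.80) and Tnfsf10 (1.33 and 0.487) were at least 2-fold higher, whereas Rora, Gpr183 and Il7r were at least 2-fold lower, and Cxcr6 was at 3.76 against 4.70.

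**Figure D2:**
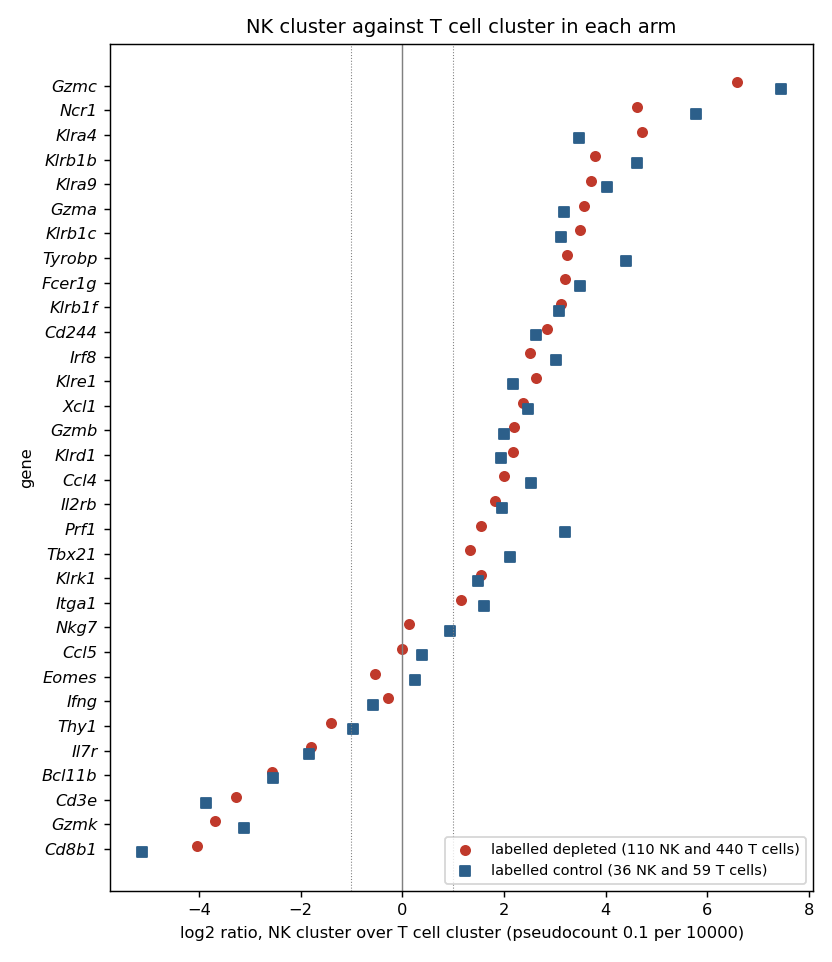
Log2 ratio of the NK cluster over the T cell cluster for 32 genes within the sample labelled depleted (circles, 110 NK and 440 T cells) and the sample labelled control (squares, 36 NK and 59 T cells), with a pseudocount of 0.1 per 10000 and dotted lines at 2-fold. The arms lie on the same side for Gzmc, Ncr1, Klrb1c, Tyrobp, Cd3e and Cd8b1, and on opposite sides for Eomes, at -0.54 labelled depleted and 0.25 labelled control.

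The surface gates were taken as the authors assigned them. In part they went with transcripts of their own markers, so they were not taken as a readout separate from the RNA. Every NK-cluster cell in the NK1.1+ CD3- gate had a UMI of Klrb1c. All 253 cells of T cell cluster 1 in the CD3+ NK- gate had a UMI of Cd3e, and their Klrb1c level was 0. The CD3- call did not go with Cd3e in the T cell cluster, where 37 of the 39 cells in the NK1.1+ CD3- gate had a UMI of it. How the gates were set was not tested. Of the 146 NK cells, 102 (69.9%, exact 95% interval 61.7 to 77.2%) lay in the authors' NK1.1+ CD3- gate. By arm it was 77 of 110 cells (70.0%, 60.5 to 78.4%) labelled depleted and 25 of 36 (69.4%) labelled control, so the arms did not differ on this measure beyond counting error. Another 15 cells (10.3%) lay in the CNS-native myeloid gate, 11 labelled depleted and 4 labelled control, 5 in the B220+ gate, 4 in the CD11b+ Ly6CLow gate and 2 in the CD3+ NK- gate, and 18 had no gate. In T cell cluster 1, 39 of 499 cells (7.82%) lay in the NK1.1+ CD3- gate and 253 (50.7%) in the CD3+ NK- gate. Seen from the gate, 102 of its 155 cells were in the NK cluster, 39 in the T cell cluster and 14 in other clusters.

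**Figure D3:**
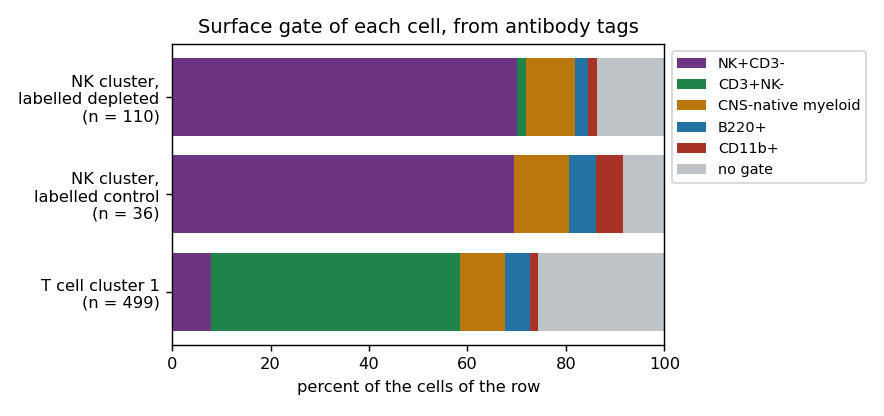
Surface gate of each cell as the authors assigned it, as percent of the cells of each row. Rows are the NK cluster labelled depleted (n = 110), the NK cluster labelled control (n = 36) and T cell cluster 1 (n = 499). The NK1.1+ CD3- gate covers 70.0% and 69.4% of the NK rows and 7.82% of the T cell row.

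Within the cluster, NK cells inside the gate were set against those outside it. Of 3105 measured genes, 1.03% were at least 2-fold higher inside and 0.805% lower. Ncr1 was at 6.29 inside and 5.18 outside, Klrd1 at 10.4 and 9.31, and Gzmc at 16.9 and 18.7. Gzma was higher inside, at 24.3 against 12.3 outside, as were Gzmb, at 11.4 against 8.01, and Prf1, at 4.11 against 2.27. Over the whole cluster the top 5 cells of each gene held 34.2% of the Gzma UMIs, 20.5% of Gzmb and 27.2% of Prf1. Klra3 was at 0.818 inside and 0.332 outside, Lag3 at 0.570 and 0.230, and Klrg1 at 0.28 and 0.051. Of the NK identity list 15 of 19 measured genes were higher inside by any size, as were 49.8% of all genes. Klrb1c itself was at 5.58 inside the gate and 2.09 outside. Since every NK-cluster cell inside had a UMI of it, this contrast follows the gate itself. The microglia list differed more: all 10 measured genes were lower inside the gate, as were 50.2% of all genes, and 7 were lower by at least 2-fold, with a summed level of 7.95 against 18.8 outside. Apoe, a lipid carrier abundant in microglia at 128.2, was at 2.29 inside and 24.2 outside. The 15 cells in the CNS-native myeloid gate had Ncr1 at 4.65 and Klrb1c at 4.65, so they carried NK transcripts. Why they lay in that gate was not tested.

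The 39 cells of T cell cluster 1 that lay in the NK1.1+ gate had transcripts of both lists. Against the 253 CD3-gated cells of that cluster, 2.04% of 2947 genes were at least 2-fold higher and 1.36% lower. Of the NK identity list 8 of 13 measured genes were at least 2-fold higher, and of the inhibitory receptors 6 of 8. Klrb1c, among those 8 NK identity genes, was at 2.85 in these cells and 0 in the CD3-gated cells. That contrast follows the gates, as no CD3-gated cell had a UMI of Klrb1c and all had one of Cd3e. Klra7 was at 3.01 and 0.298, Klra1 at 2.14 and 0.155, Fcer1g at 10.7 and 1.74, and Xcl1 at 12.6 and 3.49. At the same time Cd3e was at 5.53 and 6.99 and Cd3d at 9.95 and 10.3, while Cd8b1 was at 2.12 against 6.31. Of the T cell list 6 of 15 measured genes were at least 2-fold lower than in the CD3-gated cells, where 1.36% of all genes were. The list summed to 62.3 and 82.0. As all CD3-gated cells had a UMI of Cd3e, this contrast may also follow the gates in part. Ncr1 was at 0.786 in them, below the 6.29 of gated NK cells. A UMI of Cd3e was found in 37 of the 39 cells, and Cd3d and Cd3g were each found in all 39. Of the 102 NK-cluster cells in the same gate, 8 had Cd3e, 17 Cd3d and 33 Cd3g, and 40 had a UMI of at least 1 of them.

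The NK cells also differed among themselves in their Ly49 receptors. Ly49 genes lie in a cluster on chromosome 6, for example Klra4 at chr6:130043730-130067301, Klra8 at chr6:130115226-130129898 and Klra9 at chr6:130178626-130194374, and single NK cells are known to use some and not others. They are near-identical copies, so reads may be split or lost between them and single-gene counts are uncertain. Of 9 Klra genes, 1 or more was found in 99 of 146 NK cells (67.8%), against 20.0% of T cells. The number per cell was 0 in 47 cells, 1 in 44, 2 in 29, 3 in 12, 4 in 9, 5 in 4 and 6 in 1. At least 1 gene was found in 70.0% of NK cells labelled depleted and 61.1% of those labelled control.

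Klra9 was the most widespread, in 73 of 146 cells with a median of 7 UMIs where found and a level of 5.47 against 0.331 in T cells. Klra4, an activating member in C57Bl/6 mice, was found in 31 cells with a median of 9 UMIs. It had 290 UMIs in all NK cells and 1 in all T cells. Klra7 was found in 30 cells, Klra8 (the activating Ly49H) in 22, Klra3 in 18, Klra1 in 12, Klra5 in 7, Klra10 in 5 and Klra6 in 2. Where found, Klra10 had a median of 1 UMI, Klra5 of 2 and Klra6 of 2.5. Klra4 and Klra8 were found together in 16 cells, Klra4 alone in 15, Klra8 alone in 6 and neither in 109.

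Granzymes were likewise uneven. Gzmb was found in 100 of 146 cells, Gzmc in 70 and Gzma in 59. Of the 70 cells with Gzmc, 62 also had Gzmb, so Gzmc came mostly within the Gzmb cells. Gzma and Gzmc were found together in 25 cells, Gzma alone in 34, Gzmc alone in 45 and neither in 42. Eomes and Gzmc were found together in 5 cells, Eomes alone in 28, Gzmc alone in 65 and neither in 48. Eomes and Gzma shared 20 cells, with Eomes alone in 13. Cells of 1 sample are not replicates and no test was made on these counts.

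A split of the cluster by Itga1, chosen after its values had been seen, ordered these differences. Itga1 (chr13:114958079-115101964) encodes the collagen-binding integrin CD49a, a marker of ILC1 and of tissue-resident NK cells. It had a UMI in 90 of 146 NK cells (61.6%, 53.2 to 69.6%), against 33.3% of T cells and 5.73% of microglia, which were sequenced more deeply. By arm it was 69 of 110 cells labelled depleted and 21 of 36 labelled control. Of the positive cells 23 had 1 UMI, 28 had 2 and 39 had 3 or more, so a part of the 56 negative cells may hold the transcript below detection. The Itga1+ and Itga1- cells had medians of 6592.5 and 6274 raw UMIs. With every cell thinned to 6500 corrected UMIs, 79 were positive and 67 negative. Those UMIs were already depth-corrected, so thinning did not even out the raw depth of the cells.

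Some residency genes were more frequent in Itga1+ cells, and the largest differences are named first. Inpp4b, a lipid phosphatase listed among ILC1 genes, was found in 76 of 90 Itga1+ cells and 19 of 56 Itga1- cells. Cxcr6, a chemokine receptor of tissue-resident lymphocytes, was found in 76 of 90 and 23 of 56. Gzmc, a gene of the cytotoxic list, was found in 54 of 90 and 16 of 56. Inpp4b, Cxcr6 and Gzmc kept their direction in each arm, after thinning, without shared barcodes and inside the NK1.1+ gate. In that gate the differences were 48.5, 51.5 and 30.9 percentage points. These settings reuse the same cells, and the genes were chosen after the values had been seen, so they give no separate support. Tnfsf10, the death ligand TRAIL, was found in 55 of 90 and 22 of 56, but its difference was 9.7 points labelled depleted and 59.05 points labelled control. Other residency genes differed little: Cd69 was found in 50 of 90 and 28 of 56, Il7r in 14 and 6, and Cd200r1 in 25 and 10. Among cells labelled control Cd200r1 was rarer in Itga1+ cells, in 4 of 21 against 5 of 15. Of the list for ILC1 and tissue residency, all 9 measured genes other than Itga1 were higher in level in Itga1+ cells, 2 by at least 2-fold, with a median of 0.71, where 50.4% of all 3082 measured genes were higher by any size and 1.52% by at least 2-fold.

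Genes of conventional and mature NK cells ran the other way. Gzma was found in 25 of 90 Itga1+ cells and 34 of 56 Itga1- cells, at levels of 7.06 and 43.3. Eomes was found in 11 of 90 and 22 of 56, at 0.183 and 1.32. The Ly49 genes Klra4 (10 and 21 cells), Klra7 (9 and 21) and Klra8 (6 and 16) were also rarer in Itga1+ cells, whereas Klra9 was found in 49 and 24. Itgam was found in 21 and 23 cells, Klrg1 in 2 and 9, and S1pr5 in 3 and 7. Of the mature list 8 of 9 measured genes were lower in Itga1+ cells, 4 of them (Itgam, Prf1, Klf2 and Irf8) by at least 2-fold, where 49.6% of all measured genes were lower by any size and 0.941% by at least 2-fold.

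These differences in Gzma, Eomes, Klra4, Klra7, Klra8 and Itgam held their direction in each arm, after thinning, without shared barcodes and inside the NK1.1+ gate. Here too the settings reuse the same cells and give no separate support. For Eomes the difference was -28.4 points labelled depleted and -23.8 points labelled control, and -20.0 points after thinning. Ncr1 was found in 80 of 90 Itga1+ and 53 of 56 Itga1- cells, Klrb1c in 82 and 49, and Klre1 in 83 and 53, so these 3 markers were found in most cells on both sides of the split. By level, 13 of 19 measured genes of the NK identity list were lower in Itga1+ cells, 4 of them by at least 2-fold, with a median of -0.32 and sums of 97.1 in Itga1+ and 148.7 in Itga1- cells. Cd3e was found in 11 of 90 Itga1+ cells and 2 of 56 Itga1- cells, and the T cell list summed to 16.5 and 12.7. The highest ratios in the split otherwise rested on few cells, such as Dcn, with 55 of its 57 NK UMIs in 1 cell.

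**Figure D4:**
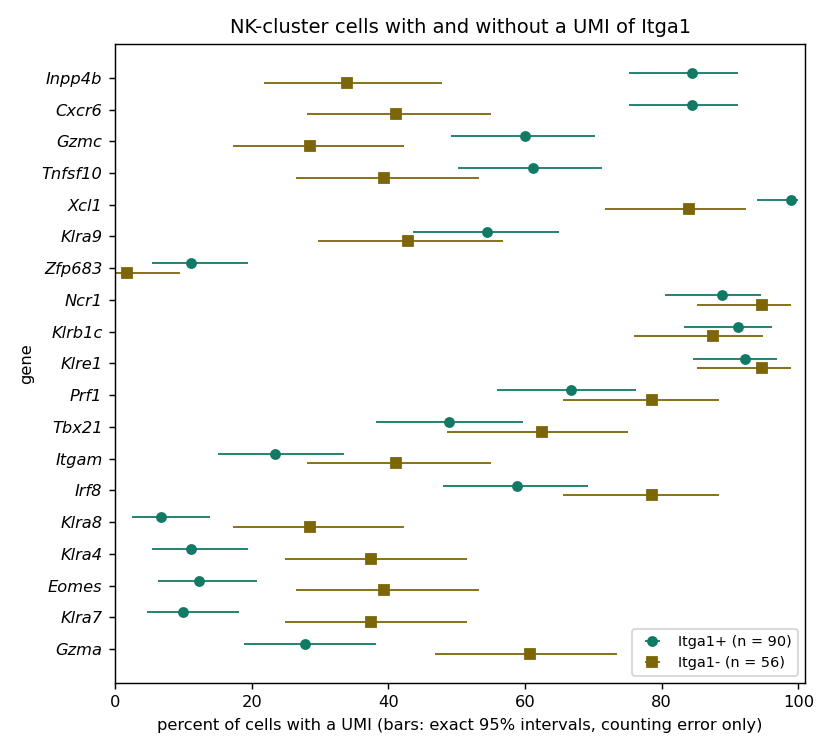
Percent of NK-cluster cells with a UMI of each of 19 genes, for the 90 cells with a UMI of Itga1 (circles) and the 56 cells without (squares), with exact 95% intervals that cover counting error only; the genes were chosen after the values had been seen. Inpp4b, Cxcr6 and Gzmc lie further right in Itga1+ cells, Ncr1, Klrb1c and Klre1 are alike, and Gzma, Eomes, Klra4 and Klra7 lie further right in Itga1- cells.

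The share of NK cells was compared between the arms. They made up 110 of 1868 cells (5.89%, 4.86 to 7.05%) labelled depleted and 36 of 785 cells (4.59%, 3.23 to 6.29%) labelled control, intervals that overlap. Without barcodes listed in another matrix the shares were 7.69% labelled depleted and 5.44% labelled control. Among NK and T cells together the NK share was 20.0% (16.7 to 23.6%) labelled depleted and 37.9% (28.1 to 48.4%) labelled control, since T cells made up 23.6% and 7.52% of all cells in those arms. Taken by surface gate, NK1.1+ CD3- cells were 121 of 362 gated NK and T cells (33.4%, 28.6 to 38.5%) labelled depleted. They were 34 of 68 (50%, 37.6 to 62.4%) labelled control, intervals that overlap. The NK share among lymphocytes was thus lower in the sample labelled depleted by clusters, and by gates within overlapping intervals. The gates went in part with the RNA of these cells, so they are no separate readout, and without replicates the arm and the animal cannot be told apart.

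NK identity genes lay close together in the arms. Of 3103 genes measured in NK cells, 45 (1.45%) were at least 2-fold higher and 42 (1.35%) at least 2-fold lower in NK cells labelled depleted, with a median of -0.02 over all genes. The NK identity list had a median of -0.12, with 1 of 19 genes at least 2-fold higher (Khdc1a, found in 19 cells) and 1 lower (Klra8). Klra8 was found in 17 cells labelled depleted and 5 labelled control, and its log2 ratio of -1.02 became -0.63 without the top cell of each arm. Among activating receptors, none of 18 measured genes passed 2-fold in either direction, with Klrk1 at 7.72 (7.18 to 8.29) labelled depleted and 6.59 (5.74 to 7.53) labelled control. Of other receptor genes, Klre1 was at 6.27 (5.79 to 6.78) labelled depleted and 6.56 (5.71 to 7.49) labelled control, and Klrd1 at 10.4 (9.78 to 11.1) and 9.0 (8.0 to 10.1).

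Cytotoxic effectors lay somewhat lower in the sample labelled depleted, with 11 of 14 measured genes lower, none by 2-fold, and a median of -0.31, where 51.9% of all genes were lower by any size. Prf1 was at 3.03 (2.70 to 3.39) labelled depleted and 5.18 (4.43 to 6.02) labelled control, and was found in 76 of 110 and 28 of 36 cells. Gzma was at 19.6 (18.7 to 20.4) and 24.4 (22.7 to 26.1), but without the top cell of each arm its log2 ratio was -0.01. Tbx21 was at 1.04 (0.849 to 1.26) labelled depleted and 1.86 (1.42 to 2.39) labelled control, found in 51 of 110 and 28 of 36 cells. Klrg1 was at 0.0805 and 0.610, from 8 UMIs in 5 cells labelled depleted and 20 UMIs in 6 cells labelled control. The Poisson intervals treat UMIs as independent, and the spread between animals is unknown.

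Cell cycle genes were among the lowest ratios. Of 9 measured cell cycle genes, 3 were at least 2-fold lower in NK cells labelled depleted, where 1.35% of all genes were. Mki67 was at 0.181 and 0.732, and Ube2c at 0.0705 and 0.945. These ratios rested on few cells: 3 or more of 6 cycling genes were found in 2 of 110 NK cells labelled depleted and 2 of 36 labelled control. Without the top cell of each arm the log2 ratio of Mki67 was -0.35 in place of -1.56.

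Of 17 measured interferon-response genes, 14 were higher in NK cells labelled depleted, 5 of them by at least 2-fold, with a median of 0.53, where 48.1% of all genes were higher by any size. Ifit1, an RNA-binding interferon target, was at 0.856 labelled depleted and 0.061 labelled control, and Isg15, a ubiquitin-like modifier, at 1.73 and 0.701. The chemokine Cxcl10, itself induced by interferon, stood at 2.52 and 0.457, with 41.9% of its NK UMIs in 1 cell. Irf7 and Ifi27l2a went the other way, at 1.05 and 1.92 labelled depleted against 1.77 and 2.87 labelled control.

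Seen cell by cell, the arms overlapped. The list took a median of 0.120% of a cell's UMIs labelled depleted (range 0.0338 to 3.12%) and 0.126% labelled control (0.0113 to 0.984%). Of the 3243 interferon UMIs in the cluster, 5 cells held 847 (26.1%), and all 5 were labelled depleted. The summed level was 26.4 labelled depleted and 18.9 labelled control, and without those 5 cells it was 18.7 and 18.9. Of all 146 NK cells, 110 were labelled depleted. The 5 cells were chosen by these same UMIs and left 1 arm only, so a fall in that arm was built in. Counted gene by gene without them, 13 of the 17 genes were still higher labelled depleted, 2 of them by at least 2-fold, with a median of 0.12. In T cells the same list ran the other way, lower labelled depleted in 18 of 21 measured genes, where 51.8% of all genes were lower.

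**Figure D5:**
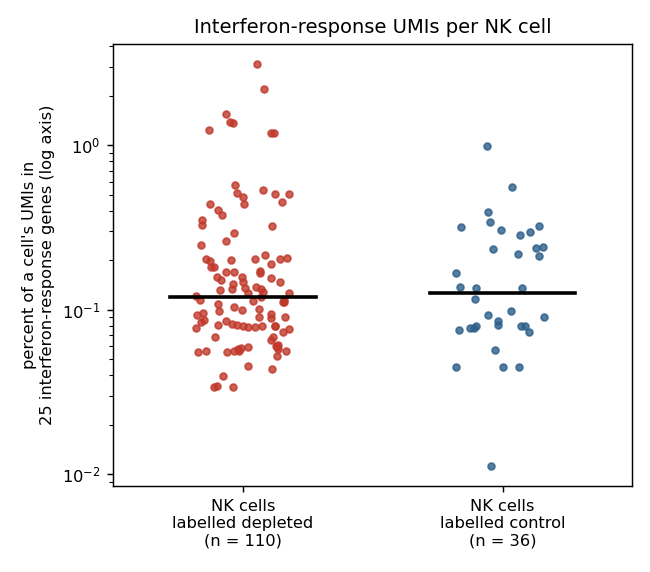
Percent of each NK cell's corrected UMIs that fall in 25 interferon-response genes (log axis), for 110 cells labelled depleted and 36 labelled control, with the median as a black bar. The medians are 0.120% and 0.126%, and the highest cells, up to 3.12%, are labelled depleted.

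Transcripts of other cell types moved with the arms as well. The microglia list was higher in NK cells labelled depleted in 8 of 8 measured genes, where 48.1% of all genes were higher. None of the 8 was higher by 2-fold, and the sums were 11.96 and 8.75. Apoe was at 10.8 labelled depleted and 2.65 labelled control, with 42.8% of its NK UMIs in 1 cell, and its log2 ratio of 1.99 became -0.14 without the cells in the CNS-native myeloid gate. The neutrophil list was at least 2-fold higher in 3 of 3 measured genes, where 1.45% of all genes were. Its sums were 8.32 and 3.23, and 40.0% of the S100a8 UMIs lay in 1 cell. Immediate early genes were mixed, with 8 of 15 higher, near the 48.1% of all genes, and Fosb at 1.61 and 3.72. The part of all these transcripts in the other differences between the arms was not tested.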

How the data were processed

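Cells of the naive brain were analysed from the RNA library, with surface gates, hashtag calls and RNA clusters taken from the deposited per-cell annotation. The submitters' processing notes name Cell Ranger 3.1, Seurat 3.1.1 and the build mm10; the filters on cells are not given in the sources used here. The deposited expression values are natural log values of 1 plus a depth-corrected UMI count. Whole UMIs had been expected when the comparisons were planned, and they were recovered with the inverse of the log: 7294825 of 7294825 values above 0 came out whole within 1e-06, and their sums equalled the annotation's corrected total in all 2653 cells. They are model-corrected UMIs, not raw counts, and in 85 NK cells the correction raised the number of detected genes, so low levels carry the correction's own error. The annotation's other fields, such as totals and gates, are the authors' and were read as deposited.

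Levels were summed UMIs per 10000, ratios used a pseudocount of 0.1, and genes at 0.5 or more on either side were measured. "Called" means at least 2-fold. Shares carry exact Clopper-Pearson and levels exact Poisson 95% intervals. No doublet caller was run. A gene of the lists is not reported here. Of the annotation, 35 columns were not used. Named genes were the 10 highest and 10 lowest ratios of each comparison and members of 25 lists (323 of 330 genes found). The members and lists were chosen with earlier results of these data known; the split by Itga1 and the genes shown for it were chosen after the values had been seen. The ratio code was checked on simulated data. Python 3.11.15, numpy 2.4.6, pandas 2.3.3 and scipy 1.17.1 were used. Promoters and gene positions are RefSeq's on GRCm38.p6.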

Additional observations from a re-analysis of the deposited data

Results flagged for a closer look

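Among the interferon-response genes, summed levels differed between the arms in opposite directions in NK and T cells. The median NK cell did not show this, with 0.120% of its UMIs in the list labelled depleted and 0.126% labelled control. Of 17 genes measured in both clusters, 12 were higher in NK cells and lower in T cells labelled depleted, and 1 was lower in NK cells and higher in T cells. Over all genes, 48.1% were higher in NK cells labelled depleted and 51.8% lower in T cells labelled depleted. The share of all genes that did both was not computed, so the count of 12 has no matching background. Cxcl10 was at 2.52 labelled depleted and 0.457 labelled control in NK cells, and at 1.03 labelled depleted and 4.42 labelled control in T cells. As given above, 1 cell held a large part of its NK UMIs. Isg15 was at 1.73 and 0.701 in NK cells of those arms and at 2.13 and 3.70 in T cells. With 1 sample an arm the difference was not tested. Without the 5 NK cells richest in these transcripts, all labelled depleted, the summed level in NK cells was 18.7 labelled depleted and 18.9 labelled control. Of the 17 genes, 11 were still higher in NK cells and lower in T cells labelled depleted. No T cells were left out in this check.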

How the results depend on the processing

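Without replicates, these alternatives show only how far the counts and shares move. Genes at least 2-fold higher and lower in NK than in T cells numbered 120 and 54. They became 66 and 31 with a pseudocount of 0.5, 182 and 90 with a minimum level of 0.2, 75 and 35 with a minimum of 1, and 218 and 130 within the sample labelled control; totals without mitochondrial, ribosomal protein and haemoglobin genes gave 94 lower. Of 80 named genes past 2-fold, 68 to 80 stayed so in the same direction under each alternative. Between NK cells labelled depleted and labelled control the counts of 45 and 42 became 8 and 2 with a pseudocount of 0.5, 68 and 66 with 0.02, 150 and 115 with a minimum of 0.2, 11 and 10 with a minimum of 1, 104 and 72 with those totals, and 88 and 74 within the NK1.1+ gate. Without shared barcodes 69 were higher. Without the top cell of each side, an alternative added after seeing the data, they were 73 and 10. Of 32 named genes past 2-fold between the arms, 9 to 32 stayed so in the same direction, 9 of them with a pseudocount of 0.5 and 22 without the top cell of each side. The NK share labelled depleted was 7.69% without shared barcodes, and among NK and T cells it was 33.4% labelled depleted and 50% labelled control by gates. Apoe reversed to -0.84 over T cells and to -0.38 between arms within the gate. Without myeloid-gated cells, also added after seeing the data, it was -0.84 and -0.14. Cenpf between arms was 0.0075 without cells far from the median of detected genes. The cause of these moves was not tested, apart from the numbers of genes and cells that each alternative changes by construction. No paired analysis was possible because each arm was 1 sample.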

Other observations

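In the blood of mice with metastases, a matrix normalized separately and therefore only set side by side, the NK1.1+ gate held 198 cells. Ncr1 was found in 9 of them, at a level of 0.378, while the neutrophil gene S100a8 was at 77.0. That gate therefore held mostly cells without Ncr1 UMIs. Within blood cluster 5 lay 13 of those cells, with Ncr1 at 5.84, Klre1 at 4.70 and Gzma at 61.3, the last found in 5 of the 13. In the naive brain NK cluster the same genes were at 5.96, 6.34 and 20.8. Gzmc was at 0.855 in the 13 blood cells, found in 2 of them, and Itga1 was at 0.997, found in 5. In the brain NK cluster Gzmc was at 17.4 and Itga1 at 1.95. Transcripts of other cells were also present in the 13 blood cells, with S100a8 at 31.2, Lyz2 at 31.5 and Cd3e at 1.57, where the brain NK cluster had 2.42, 2.86 and 0.409. No ratio between these matrices was computed.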
